A study of Mus musculus with 96 samples.

Results

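The genes described here are 53 genes of G2 and mitosis, taken by symbol from a list of cyclins, kinases, checkpoint proteins, kinesins, kinetochore proteins and condensin subunits, out of 24057 genes in the expression table. All 53 were found, and all 53 passed the filter for the expression test, which kept 11980 genes whose log2(TPM + 1) exceeded 1 in 2 cells or more. In the filter for cell-to-cell variation, a mean log2(TPM + 1) above 1 over all cells, 52 of them were among the 7843 genes kept, and Nek2 was not. The list was not chosen from these measurements, but it was proposed with earlier results of these data known.

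Single cells of EL4, a T-lymphoma line from the C57BL/6N mouse, were profiled by RNA-seq after capture on the Fluidigm C1 system to ask how knockdown of CTCF, a DNA-binding protein that shapes chromatin loops, altered expression and its variation between cells. WT cells carried an shRNA against luciferase, a control sequence, and CTCF-KD cells an shRNA against Ctcf, and infected GFP-positive cells were sorted and checked 5 days after infection. WT1 and CTCFKD1 made up experiment 1 and WT2 and CTCFKD2 experiment 2, with 24 sequenced cells per culture, which the study picked from each circuit for their quality. Each culture was loaded on a circuit of its own, so culture, circuit and, within an experiment, condition cannot be told apart. All groups are the same transformed line, and the study's methods give 2 hairpin sequences against Ctcf, without saying which of them each sequenced culture carried. With 2 cultures per condition as the replicates, an exact permutation test of a single value cannot give a p below 0.333.

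One WT2 cell with 81 genes detected and reads of 0 of the 53 genes was left out, leaving 47 WT and 48 CTCF-KD cells. Recovered reads per cell ranged from 41591 to 405404, and the median was lowest in CTCFKD2, at 131098 against 230477 to 247586 in the other cultures. Median genes detected per cell were 4771 in WT1, 4635 in WT2, 6172.5 in CTCFKD1 and 5656 in CTCFKD2. Mean Ctcf was 60.3 TPM in WT1 (SD 76.8 over 24 cells), 37.1 in WT2 (SD 45.5 over 23), 15.96 in CTCFKD1 (SD 27.4 over 24) and 44.9 in CTCFKD2 (SD 50.0 over 24). Ctcf was therefore not lower in the culture labelled CTCFKD2 than in WT2, a comparison of the captured cells alone. The study checked the knockdown in whole populations by qPCR of Ctcf RNA and by Western blotting of the protein, for both knockdowns, and these measures were not analysed here. Values are given below for each culture, and the counts of culture means, detection and spread also without CTCFKD2. All 8 T-cell markers were detected in every culture, with median summed levels per cell from 5230 to 7683 TPM. Of 5 B-cell and 5 myeloid markers, the median cell of every culture had 0 TPM in sum.

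In a dividing cell, cyclin A and cyclin B with the kinase Cdk1 drive entry into mitosis, after which the spindle checkpoint holds the anaphase-promoting complex until every kinetochore is attached. The complex, with its activator Cdc20, then marks securin and cyclin B for destruction, and chromosomes separate. Most of these genes are transcribed in G2 and M and are nearly silent in G1, through CCAAT boxes and CHR elements in their promoters, so their RNA marks the cells of a growing culture that are close to division.

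The conditions differed in how the 53 genes were spread over cells. Their share of a cell's TPM was 0.0141% in the lowest, 0.179% in the median and 2.10% in the highest WT1 cell. In WT2 the corresponding shares were 0.0285%, 0.304% and 2.34%. In CTCFKD1 they were 0.0227%, 0.594% and 1.24%, and in CTCFKD2 0.102%, 0.465% and 1.17%. The highest cell of each WT culture was above every CTCF-KD cell, and the lowest of all was a WT1 cell, though the lowest CTCFKD1 cell was below every WT2 cell. The culture means, 0.654%, 0.685%, 0.585% and 0.499% in the same order, were close together. A share under 0.1% was found in 10 of 24 WT1 cells (41.7%, exact 95% interval 22.1 to 63.4%) and 7 of 23 WT2 cells (30.4%, 13.2 to 52.9%). It was found in 2 of 24 CTCFKD1 cells (8.33%, 1.03 to 26.997%) and 0 of 24 CTCFKD2 cells (exact 95% interval 0 to 14.2%). At the other end, a share above 1% was found in 9 WT1 and 7 WT2 cells and in 1 CTCFKD1 and 3 CTCFKD2 cells. Between 0.3% and 1% were 2 of 24 WT1 cells (8.33%, 1.03 to 26.997%), 5 of 23 WT2 cells (21.7%, 7.46 to 43.7%), 19 of 24 CTCFKD1 cells (79.2%, 57.8 to 92.9%) and 13 of 24 CTCFKD2 cells (54.2%, 32.8 to 74.4%). These intervals cover counting of cells within a culture and not the spread between cultures.

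The number of the 53 genes with reads in a cell differed at its low end in the same direction, but not at its high end. Its median was 26.5 in WT1, 34 in WT2, 45 in CTCFKD1 and 37.5 in CTCFKD2. After thinning to 80000 reads it was 21.5, 26, 41 and 36, the last over 23 cells, since 1 CTCFKD2 cell had too few reads to thin. At most 15 of the genes were detected in 9 WT1 and 8 WT2 cells but in 1 cell each of CTCFKD1 and CTCFKD2. More than 40 were detected in 10 WT1, 10 WT2, 16 CTCFKD1 and 11 CTCFKD2 cells. The low cells of WT were therefore scarce in CTCF-KD, and cells with over 40 of the genes were present in every culture.

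**Figure D1:**
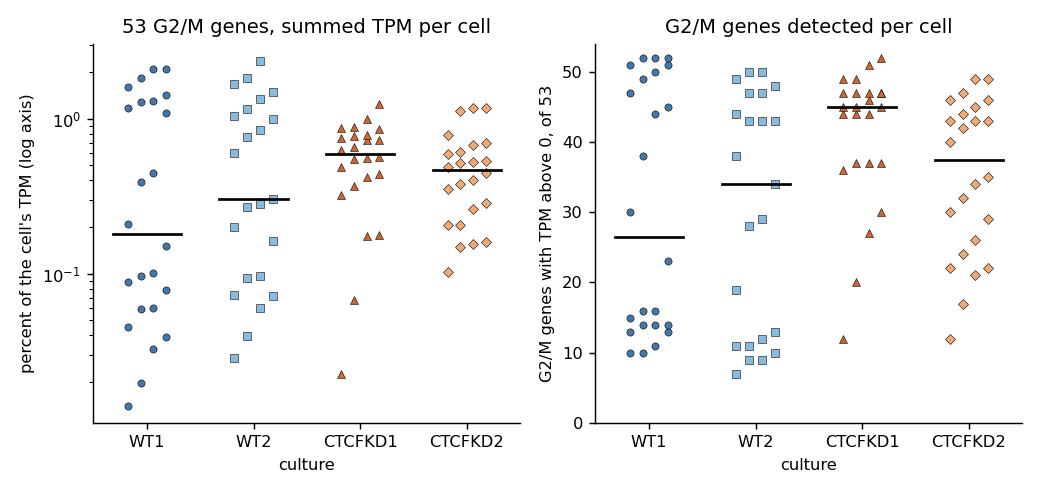
Each point is 1 cell. The left panel gives the summed TPM of the 53 genes as a percent of the cell's TPM, on a log axis, and the right panel the number of the 53 genes with TPM above 0, by culture, with black lines at the medians (0.179, 0.304, 0.594 and 0.465% on the left). WT1 cells lay mostly below 0.1% (10 cells) or above 1% (9 cells), WT2 cells were spread over the whole range, and CTCF-KD cells lay mostly between 0.1% and 1.24%.

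**Figure D2:**
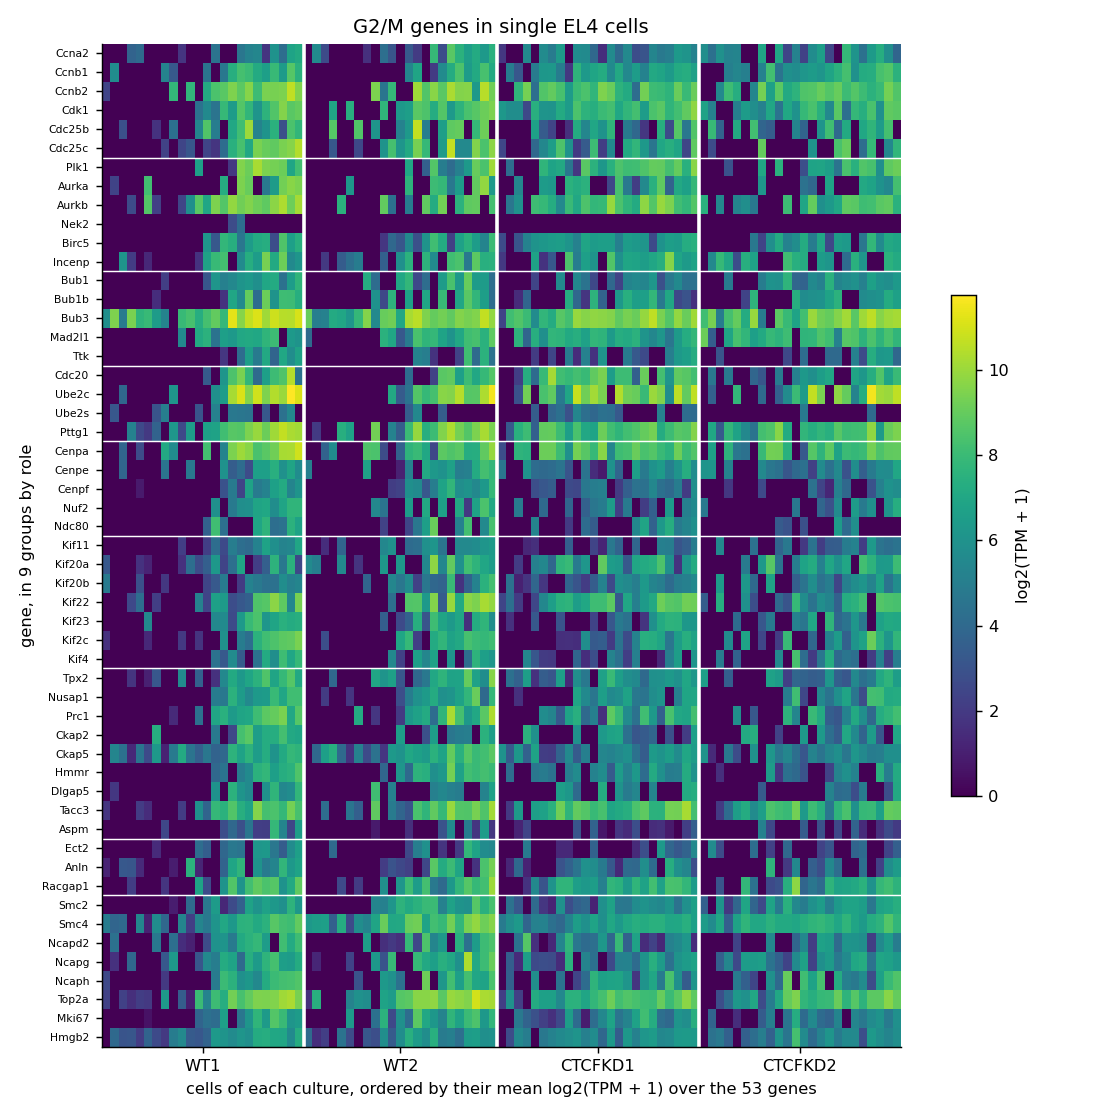
Each column is 1 of the 95 cells and each row 1 of the 53 genes, grouped by role between white lines, and colour gives log2(TPM + 1), with 0 for no reads. Cells are ordered within each culture by their mean over the 53 genes, and the dark blocks at the left of WT1 and WT2 are where the cells with at most 15 of the genes detected lie, 9 and 8 in number.

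The 53 genes varied together over the cells of WT cultures, and with lower correlations over those of CTCF-KD cultures. For each pair of genes with reads in at least 6 cells of a culture, Spearman's correlation of log2(TPM + 1) was taken over the cells of that culture. The median correlation was 0.716 in WT1 (1326 pairs, 24 cells), 0.594 in WT2 (1275 pairs, 23 cells), 0.330 in CTCFKD1 (1326 pairs, 24 cells) and 0.322 in CTCFKD2 (1275 pairs, 24 cells). For pairs drawn from all genes of the variation filter it was 0.023, 0.034, 0.013 and 0.027. The correlation exceeded 0.5 in 88.4% of the pairs of G2/M genes in WT1, 72.2% in WT2, 21.04% in CTCFKD1 and 18.8% in CTCFKD2, and in 1.04 to 1.49% of all pairs. Both CTCF-KD medians were below both WT medians. The cells of a culture share a circuit and differ in depth and in genes detected, so these values are a description and no p-value is given.

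Genes detected per cell moved with the level of the 53 genes in 3 of 4 cultures. The Spearman correlation between a cell's mean log2(TPM + 1) over the 53 genes and its number of genes detected was 0.53 in WT1, 0.55 in WT2, 0.02 in CTCFKD1 and 0.64 in CTCFKD2. With genes detected removed by rank regression, the median correlation of pairs was 0.641, 0.543, 0.339 and 0.219 in the same order, and in cells thinned to 80000 reads 0.707, 0.566, 0.303 and 0.335. The CTCF-KD medians stayed below the WT medians in both settings. The mean over the 53 genes was also compared with that of 42 genes of the G1/S transition and DNA replication, and the correlation was 0.82 in WT1, 0.71 in WT2, 0.28 in CTCFKD1 and 0.44 in CTCFKD2. With Ctcf itself it was 0.68, 0.55, 0.15 and 0.31, so WT cells with more RNA of the G2/M genes tended to have more Ctcf RNA. Genes detected were not removed from the comparisons with the G1/S genes and with Ctcf, and their part in them was not tested. Ctcf had reads in 19 of 24 WT1, 17 of 23 WT2, 16 of 24 CTCFKD1 and 20 of 24 CTCFKD2 cells.

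**Figure D3:**
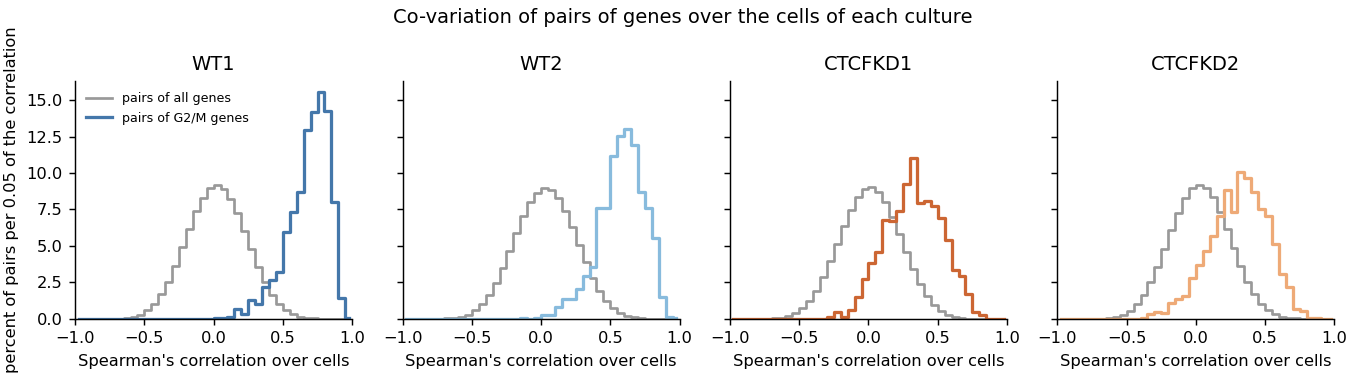
Each panel is a culture, with Spearman's correlation of log2(TPM + 1) between 2 genes over its cells on the x axis and the percent of pairs per 0.05 of the correlation on the y axis. Coloured lines are pairs of the G2/M genes, with medians of 0.716, 0.594, 0.330 and 0.322 from left to right, and grey lines are pairs of all genes kept for variation, with medians from 0.013 to 0.034.

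Over all 4 cultures, the genes that followed the others best were Top2a, the topoisomerase that untangles sister chromatids, with a mean correlation of 0.85 against the mean of the other members, Nusap1, a microtubule-bundling protein (0.80), and Plk1, the polo-like kinase (0.80). Ccnb1 (cyclin B1, 0.78), Cdk1 (0.77) and Racgap1, a part of the centralspindlin complex of the midzone (0.77), came next. The lowest values were those of Cdc25b, a phosphatase that activates Cdk1 (0.44), Ccna2 (cyclin A2, 0.45) and Mad2l1, the checkpoint inhibitor of Cdc20 (0.46). For Mad2l1 the correlation was 0.66 in WT1 and 0.79 in WT2 but 0.11 in CTCFKD1 and 0.29 in CTCFKD2, whereas for Top2a it was 0.85, 0.87, 0.87 and 0.82. These genes were picked for their mean over the same 4 cultures, so their values are a description.

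The 6271 genes detected in at least 6 cells of every culture were ranked by their correlation with the mean of the 53 genes, averaged over the 4 cultures. The ranking included listed genes, and the 6 highest genes outside the list are named. Tubb5, a beta-tubulin, had a correlation of 0.77 in WT1, 0.89 in WT2, 0.70 in CTCFKD1 and 0.70 in CTCFKD2. Tuba1b, an alpha-tubulin, followed with a mean of 0.75, then Ckap2l, a spindle protein (0.73), Spc25 (0.72), Cdca2 (0.72) and Spc24 (0.71), of which Spc24 and Spc25 encode subunits of the Ndc80 complex. The 50 highest genes included 31 of the 51 listed genes that could be ranked and 12 of 47 genes from a further list of mitosis genes. Each listed gene was itself part of the mean it was ranked against, which favours it, so the count of listed genes is no test of co-variation.

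The promoters of the listed genes carried the letters of their known shared elements. RefSeq promoter windows (GRCm38.p6, 250 bases before to 50 after a transcript start) were matched by symbol for 45 of the 53 genes, giving 48 windows. TTTGAA, the letters of a CHR element (TTCAAA on the reverse strand), was present in 35 of 48 windows (72.9%) against 17.9% of all 32851 windows, and CCAAT, the NF-Y box (ATTGG on the reverse strand), in 36 (75%) against 37.4%. Neighbouring motifs can share 1 base at their ends. Both were present in 31 windows (64.6%) against 6.95% of all. A match of letters is no proof of binding. Stretches of 150 bases, from 120 before to 30 after the start, are printed for 5 genes described below: Cdk1 and Ccnb2 as the partners that drive mitosis and are set out first, Cdc20 with both motifs, Ccnb1 with CCAAT alone, and Bub3 for its high level in nearly every cell. Each is written 5′ to 3′ on the gene's strand, and capitals mark either motif on either strand.
Cdk1: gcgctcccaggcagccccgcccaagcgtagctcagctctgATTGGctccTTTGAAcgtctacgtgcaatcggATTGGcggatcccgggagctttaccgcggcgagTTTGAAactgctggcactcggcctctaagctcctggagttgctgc
Ccnb2: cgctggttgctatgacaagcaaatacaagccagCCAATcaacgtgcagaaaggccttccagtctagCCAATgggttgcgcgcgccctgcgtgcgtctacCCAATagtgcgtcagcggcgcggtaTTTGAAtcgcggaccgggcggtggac
Cdc20: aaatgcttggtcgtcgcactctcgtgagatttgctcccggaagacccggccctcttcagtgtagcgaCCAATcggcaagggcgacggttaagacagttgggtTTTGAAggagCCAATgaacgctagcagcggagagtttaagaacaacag
Ccnb1: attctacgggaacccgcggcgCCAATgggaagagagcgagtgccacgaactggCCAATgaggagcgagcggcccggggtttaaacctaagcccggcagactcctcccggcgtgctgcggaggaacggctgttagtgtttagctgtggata
Bub3: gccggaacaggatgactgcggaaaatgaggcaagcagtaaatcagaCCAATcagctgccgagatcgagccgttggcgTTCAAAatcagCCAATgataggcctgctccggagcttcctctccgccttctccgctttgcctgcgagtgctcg
In Cdk1 (chr10:69352883-69353032, minus strand) ATTGG began at positions -80 and -48 and TTTGAA at -71 and -15, counted from the transcript start. In Ccnb2 (chr9:70421525-70421674, minus) 3 CCAAT boxes began at -87, -54 and -21, and TTTGAA began at position 5. Cdc20 (chr4:118437314-118437463, minus) held CCAAT at -53 and -8 and TTTGAA at -18. Ccnb1 (chr13:100786457-100786606, minus) held CCAAT at -99 and -67 and no TTTGAA in the stretch. Bub3 (chr7:131560250-131560399, plus, the upstream of its 2 annotated starts) held CCAAT at -74 and -32 and TTCAAA at -43. Across the matched genes, the median mean correlation with the other members was 0.679 for 32 genes with TTTGAA and 0.7002 for the 11 with a correlation and without it, which are close.

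In culture means, none of the 53 genes passed the test between CTCF-KD and WT. The 4 values of log2(mean TPM + 1) per gene entered limma with a mean-variance trend, with Benjamini-Hochberg adjustment over 11980 genes at 0.05, and it called 0 genes of all in either direction (0.0% higher, 0.0% lower). At an unadjusted p under 0.05, 0 of the 53 were higher (4.79% of all genes) and 3 were lower (2.82% of all genes). The log2 change was below 0 in 40 of the 53, and its median was -0.45, against 0.04 over all genes, of which 52.1% had a change above 0. Both CTCF-KD means lay below both WT means for 26 of the 53 (16.9% of all genes) and above them for 1, Mad2l1 (19.9% of all genes). In 31 genes the mean was lower in both experiments (26.7% of all) and in 3 higher in both (30.1% of all). Without CTCFKD2, 38 of the 53 changes were below 0 (51.9% of all genes). The CTCFKD1 mean lay below both WT means for 30 (32.3% of all genes) and above them for 8 (31.3%). This direction held for means of TPM. For the mean over cells of log2(TPM + 1), 13 genes had a change below 0 and the median was 0.33, against 0.23 over all genes. On that scale both CTCF-KD values lay above both WT values for 21 of 52 genes (42.4% of all genes) and below them for 3 (9.6%). Again 0 of the 53 were called by limma with Benjamini-Hochberg adjustment. The members with an unadjusted limma p under 0.05 on that scale were all higher in CTCF-KD, and none was lower. Lowest were the p of Mad2l1, 0.00161 (adjusted p = 0.0835), and of Ccnb2, 0.00259 (adjusted p = 0.0914). Over all genes the same test called 44 higher and 2 lower at an adjusted p under 0.05.

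Both scales follow from how many cells had reads of a gene and from the level in those cells. Of the 53 genes, 32 were detected in a larger share of cells in both CTCF-KD cultures than in both WT cultures (36.2% of all genes) and 0 in a smaller share (5.96% of all). The median share of cells per gene was 54.2% in WT1, 56.5% in WT2, 83.3% in CTCFKD1 and 66.7% in CTCFKD2. After thinning to 80000 reads the count was 30 (38.6% of all), and for TPM above 10 it was 29 (32.6%). In the cells where it was detected, the mean TPM of a gene was lower in both CTCF-KD cultures than in both WT cultures for 34 of 52 genes (25.4% of all) and higher for 0 (9.71%). After thinning, 35 of 52 were lower (29.9%). Both together, more cells and a lower level in them, held for 21 of 52 (8.21% of all). Without CTCFKD2, 45 of 53 genes were detected in a larger share of cells (57.4% of all genes) and 40 of 52 were lower where detected (51.3%). Genes detected per cell were also higher in CTCF-KD, and thinning to 80000 reads did not remove this. In thinned cells their median was 4164 in WT1, 4005 in WT2, 5232.5 in CTCFKD1 and 5222 in CTCFKD2. The thinned counts are therefore matched for reads and not for genes detected, whose part in these counts was not tested.

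**Figure D4:**
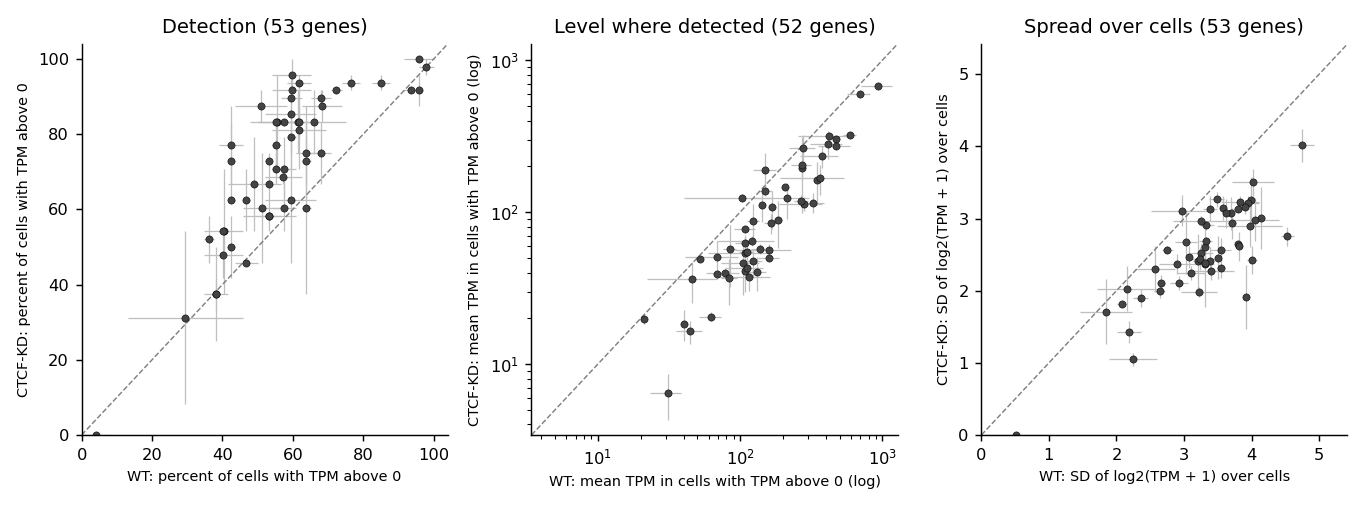
Each point is 1 of the G2/M genes at the mean of the 2 WT cultures (x axis) and of the 2 CTCF-KD cultures (y axis), grey bars span the 2 cultures of a condition and the dashed line marks equal values. From left to right the panels give the percent of cells with TPM above 0, the mean TPM in those cells (log axes) and the SD of log2(TPM + 1) over cells. Most genes lie above the line in the first panel and below it in the others.

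Among the cyclins, Cdk1 and the Cdc25 phosphatases, which start mitosis, 5 of 6 genes were detected in more cells of both CTCF-KD cultures (36.2% of all genes). Where detected, 5 of 6 were lower in both (25.4% of all genes). Values of a gene are given as the mean TPM ± SD over the kept cells of a culture (24 cells, or 23 in WT2). Cdk1 had 139.9 ± 209 TPM in WT1, 187 ± 205 in WT2, 224 ± 193 in CTCFKD1 and 150.3 ± 148 in CTCFKD2. It was detected in 13 of 24 WT1, 15 of 23 WT2, 24 of 24 CTCFKD1 and 22 of 24 CTCFKD2 cells, so cells without Cdk1 reads were mostly WT cells, while the culture means overlapped. Its log2 change was 0.18 (SE 0.37, adjusted p = 0.939, limma with Benjamini-Hochberg adjustment), and -0.10 without CTCFKD1. Ccnb2, cyclin B2, had 331 ± 401 TPM in WT1, 371 ± 462 in WT2, 302 ± 215 in CTCFKD1 and 275 ± 195 in CTCFKD2, with both CTCF-KD means below both WT means, and was detected in 15, 13, 22 and 21 cells in that order. Where detected, its mean TPM was 529 and 657 in WT and 329 and 314 in CTCF-KD. The log2 change of Ccnb2 was -0.28, and 2.01 with log2(TPM + 1) averaged over cells. Ccnb1 had 85.4 ± 118 TPM in WT1, 61.1 ± 103 in WT2, 79.4 ± 57.7 in CTCFKD1 and 112 ± 116 in CTCFKD2, with overlapping groups, and was detected in 14, 10, 22 and 20 cells. Ccna2, the lowest of the cyclins by the mean of the 4 cultures, had 20.4 ± 36.7 TPM in WT1, 62.9 ± 107 in WT2, 30.4 ± 25.9 in CTCFKD1 and 53.5 ± 58.5 in CTCFKD2.

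Cdc25c and Cdc25b, both phosphatases that remove the inhibitory marks from Cdk1, were among the 5 genes with the lowest statistics. Cdc25c had 215 ± 354 TPM in WT1, 227 ± 399 in WT2, 92.8 ± 123 in CTCFKD1 and 80.5 ± 159 in CTCFKD2, so that both CTCF-KD means were under both WT means. Its log2 change of -1.34 (SE 0.34) had an unadjusted p of 0.00613 and an adjusted p of 0.585 (limma, Benjamini-Hochberg). Reads of Cdc25c were found in 15, 15, 20 and 9 cells. Cdc25b had 117 ± 234 TPM in WT1, 196 ± 369 in WT2, 72.1 ± 116 in CTCFKD1 and 83.98 ± 109 in CTCFKD2, also without overlap of the groups, and a log2 change of -0.95 (SE 0.41, adjusted p = 0.656, limma with Benjamini-Hochberg adjustment), which was -0.59 without WT2. When log2(TPM + 1) was averaged over cells, the change was 0.03 for Cdc25b and -0.71 for Cdc25c.

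The mitotic kinases and the chromosomal passenger complex, which correct faulty attachments, had 3 log2 changes above 0 and 3 below. Aurkb, the kinase of that complex, had 388 ± 407 TPM in WT1, 148 ± 210.4 in WT2, 313 ± 289 in CTCFKD1 and 168 ± 177 in CTCFKD2, and Plk1 had 203 ± 334 TPM in WT1, 115 ± 257 in WT2, 228 ± 216 in CTCFKD1 and 122 ± 165 in CTCFKD2. In both genes the means differed more between the 2 experiments than between the conditions. Plk1 was nevertheless detected in 10 WT1, 10 WT2, 20 CTCFKD1 and 15 CTCFKD2 cells, and its mean TPM in those cells was 488, 264, 274 and 196. Plk1, Birc5 (survivin, another passenger subunit) and Mad2l1 were the 3 genes with a higher mean in both experiments. Nek2, a centrosomal kinase, had 13 reads in 2 WT1 cells and none in the 71 kept cells of the other cultures, which allows a share of up to 4.23% of cells with a read, and no fold change is given for it.

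Of the spindle checkpoint genes, Mad2l1 had the highest statistic of all 53. Its means were 66.4 ± 79.6 TPM in WT1, 116 ± 135 in WT2, 122 ± 74.3 in CTCFKD1 and 224 ± 141 in CTCFKD2, so both CTCF-KD cultures were above both WT cultures, WT2 and CTCFKD1 by little. The log2 change was 0.90 (SE 0.47, adjusted p = 0.725, limma with Benjamini-Hochberg adjustment), and it was detected in 13, 15, 22 and 22 cells. The change was 0.50 without WT1 and 0.46 without CTCFKD2. Bub3, which recruits checkpoint proteins to kinetochores and is also expressed outside mitosis, had the highest level of the list, with 787 ± 797 TPM in WT1, 564 ± 452 in WT2, 591 ± 377 in CTCFKD1 and 587 ± 428 in CTCFKD2, and was detected in 23 of 24, 23 of 23, 24 of 24 and 23 of 24 cells. The other 3, Bub1, Bub1b and Ttk, had log2 changes below 0, down to -0.84.

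For the anaphase-promoting complex, the activator Cdc20 had 145 ± 315 TPM in WT1, 88.7 ± 155 in WT2, 272 ± 267 in CTCFKD1 and 65.7 ± 92.1 in CTCFKD2, with overlapping groups. The conjugating enzyme Ube2c had 629.7 ± 966 TPM in WT1, 403 ± 713 in WT2, 578 ± 557 in CTCFKD1 and 470.3 ± 751 in CTCFKD2, and securin, Pttg1, had 369 ± 496 TPM in WT1, 357 ± 411 in WT2, 301 ± 203 in CTCFKD1 and 266 ± 249 in CTCFKD2. The groups overlapped for Ube2c, and for Pttg1 both CTCF-KD means were under both WT means by less than the SDs over cells. The log2 change of Pttg1 was -0.36, and 1.43 with log2(TPM + 1) averaged over cells. Ube2c was detected in 13, 13, 20 and 17 cells and Pttg1 in 19, 17, 23 and 22. Ube2s, the chain-elongating enzyme, rested on 32, 6, 33 and 3 reads in the 4 cultures, too few to place it.

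The centromere and kinetochore genes and those of cytokinesis had the lowest median changes of the 9 roles, -1.19 over 5 genes and -1.34 over 3. Ndc80, which couples kinetochores to microtubules, had 40.4 ± 79.02 TPM in WT1, 59.9 ± 138 in WT2, 25.2 ± 41.6 in CTCFKD1 and 7.57 ± 20.6 in CTCFKD2 and was detected in 9, 9, 12 and 6 cells. Both CTCF-KD means were under both WT means, with a log2 change of -1.75 (SE 0.73, adjusted p = 0.656, limma with Benjamini-Hochberg adjustment). That change was -0.94 without CTCFKD2 and -2.55 without CTCFKD1. Cenpa, the centromeric histone H3 variant and the most abundant of the group, had 367 ± 527 TPM in WT1, 190.0 ± 239 in WT2, 310.5 ± 217 in CTCFKD1 and 243 ± 213 in CTCFKD2, with overlapping groups. Anln, the anillin scaffold of the cleavage furrow, had 45.1 ± 70.6 TPM in WT1, 84.7 ± 170.0 in WT2, 24.1 ± 35.5 in CTCFKD1 and 20.4 ± 44.7 in CTCFKD2, again without overlap, and a log2 change of -1.44 (SE 0.55, unadjusted p = 0.0368, adjusted p = 0.627, limma with Benjamini-Hochberg adjustment). Racgap1 had 118 ± 171 TPM in WT1, 136 ± 238 in WT2, 125 ± 106 in CTCFKD1 and 119 ± 184 in CTCFKD2, with overlapping groups.

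Among the 7 kinesins, motors of spindle and chromosomes, the median change was -0.63, with 5 lower and 2 higher (52.1% of all genes had a change above 0). Kif22, a chromosome-arm motor, had 127 ± 237 TPM in WT1, 280.5 ± 404 in WT2, 195 ± 198 in CTCFKD1 and 97.8 ± 127 in CTCFKD2, so the experiments went in opposite directions. Kif20a, which acts in cytokinesis, had 28.6 ± 55.8 TPM in WT1, 108 ± 203 in WT2, 98.1 ± 121 in CTCFKD1 and 87.4 ± 110.0 in CTCFKD2, and its log2 change of 0.72 (SE 0.65, adjusted p = 0.834, limma with Benjamini-Hochberg adjustment) rested on a low WT1 mean and was -0.22 without WT1.

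The 9 spindle and microtubule-associated genes had a median change of -0.87, with 8 below 0 (52.1% of all genes had a change above 0). In both experiments 7 were lower (26.7% of all genes). Ckap5, a microtubule polymerase, had 75.1 ± 75.7 TPM in WT1, 138 ± 147 in WT2, 45.5 ± 36.3 in CTCFKD1 and 33.1 ± 23.7 in CTCFKD2 and was detected in 23, 22, 23 and 21 cells, so that for this gene the level and not the share of cells separated the groups. Its log2 change was -1.37 (SE 0.49, unadjusted p = 0.0284, adjusted p = 0.610, limma with Benjamini-Hochberg adjustment). Tacc3, a partner of Ckap5 at the spindle, was among the 5 highest statistics, with 156 ± 212 TPM in WT1, 248 ± 325 in WT2, 294 ± 271 in CTCFKD1 and 191 ± 169 in CTCFKD2 and overlapping groups. Nusap1 had 61.7 ± 95.2 TPM in WT1, 67.9 ± 122 in WT2, 39.4 ± 44.7 in CTCFKD1 and 60.8 ± 98.9 in CTCFKD2, where CTCFKD2 and WT1 were nearly equal.

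All 8 genes of condensin and chromosome structure had a change below 0 (52.1% of all genes had one above 0), with a median of -0.63. In both experiments 7 were lower (26.7% of all genes). Top2a had 308 ± 379 TPM in WT1, 492 ± 532 in WT2, 254 ± 205 in CTCFKD1 and 254 ± 239 in CTCFKD2, without overlap, and a log2 change of -0.61 (SE 0.35, adjusted p = 0.751, limma with Benjamini-Hochberg adjustment), which was -0.95 without WT1 and -0.28 without WT2. The change of Top2a was 0.68 when log2(TPM + 1) was averaged over cells. The median share of cells in which genes of this role were detected was 68.8% in WT1, 67.4% in WT2, 91.7% in CTCFKD1 and 91.7% in CTCFKD2.

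**Figure D5:**
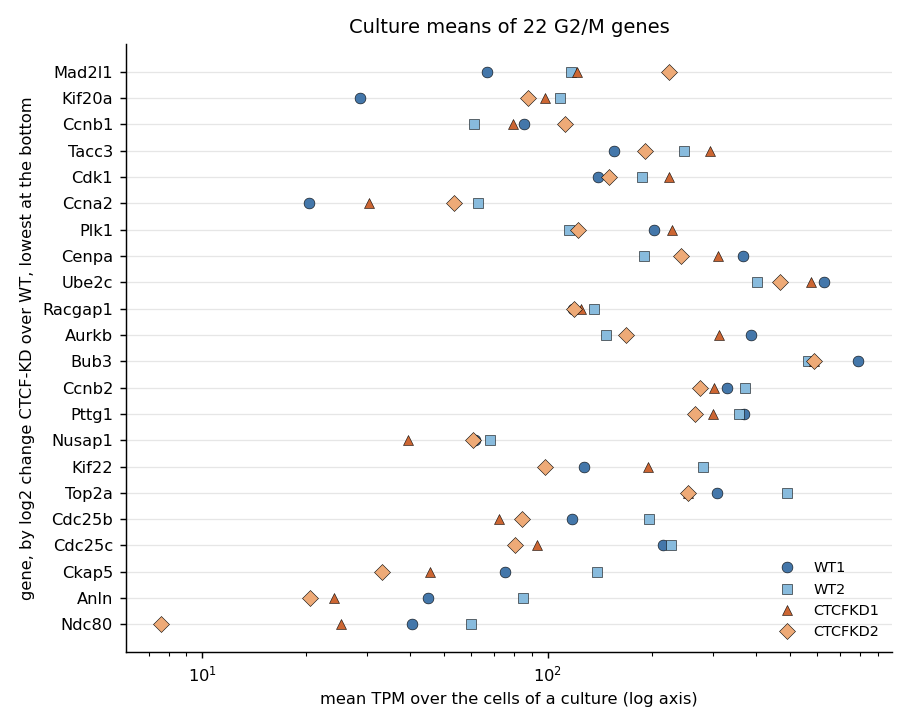
Mean TPM over the kept cells of each culture (log axis) for the 22 genes given with their values, ordered by log2 change from Ndc80 (-1.75) at the bottom to Mad2l1 (0.90) at the top. Symbols mark the 4 cultures. For the 6 lowest genes both CTCF-KD points lie left of both WT points, for Mad2l1 to their right, and for most genes the conditions overlap.

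The spread of the genes over cells was narrower in CTCF-KD. The SD of log2(TPM + 1) was smaller in both CTCF-KD cultures than in both WT cultures for 45 of 52 genes (36.9% of all genes) and larger for 0 (9.36%). Without CTCFKD2 these counts were 47 (61.6% of all genes) and 0 (14.03%). The median SD per gene was 3.39 in WT1, 3.43 in WT2, 2.41 in CTCFKD1 and 2.66 in CTCFKD2, against 2.04, 2.18, 1.87 and 2.06 over the genes of the expression test. For Cdk1 it was 3.91, 3.91, 1.47 and 2.35, and for Mad2l1 3.48, 3.60, 2.17 and 2.45. The coefficient of variation (CV), the SD of log2(TPM + 1) divided by its mean with the cultures of a condition pooled, was lower in CTCF-KD for 48 of 52 genes, and so it was for 81.5% of all genes. By the rule that calls a gene when its CV difference lies over 1 SD from the mean difference of all genes, 0 of the 52 were called lower (11.3% of all genes) and 0 higher (7.68%). In both experiments taken alone, 0 were lower (3.8% of all genes) and 0 higher (1.78%). With the running median of CV at the gene's mean level subtracted, 12 of 52 were lower (7.32% of all genes), among them Cdk1, Ccnb2, Cenpe, Smc2 and Mki67. In limma on the CV of each culture with Benjamini-Hochberg adjustment, 3 fell. The tested differences were -0.585 for Cdk1 (adjusted p = 0.0417), -0.530 for Mad2l1 (adjusted p = 0.0433) and -0.499 for Ccnb2 (adjusted p = 0.0488). With cultures pooled, which limma did not test, the CV in WT and CTCF-KD was 0.865 and 0.3002 for Cdk1, 0.871 and 0.353 for Mad2l1 and 0.874 and 0.383 for Ccnb2. In that test 4.14% of 7823 genes were lower and 0.0639% higher, so the 3 of 52 are a share near that of all genes. With culture number as a replicate block 16 of 52 were lower (19.9% of all genes), with adjusted p from limma of 7.91e-05 for Cdk1, 0.000825 for Mad2l1 and 0.00253 for Ccnb2. In fits with no block and a culture left out, the CV difference of Cdk1 was -0.472 without WT1, -0.699 without WT2, -0.496 without CTCFKD1 and -0.674 without CTCFKD2. The number of members called depended on the culture left out, as given in the closing section.

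Other genes of the cell cycle were described by a part of the same counts. Of 57 further mitosis genes, 56 were tested and 0 passed by limma. At an unadjusted p under 0.05 by limma 0 were higher and 1 lower, against 4.79% and 2.82% of all genes. A log2 change below 0 was found in 31, with a median of -0.18. Over all genes 52.1% had a change above 0, and the median was 0.04. The direction depended on the scale, since with log2(TPM + 1) averaged over cells the median of the further mitosis genes was 0.71, against 0.23 over all genes. Of the further mitosis genes, 34 were detected in more cells of both CTCF-KD cultures (36.2% of all genes) and 28 were lower where detected (25.4%). By the rule for CV differences, 5 of 53 were called lower (11.3% of all genes) and 1 higher (7.68%). Cdca2, a chromatin-bound phosphatase targeting subunit, had the lowest statistic, with means of 160 TPM in WT1, 97.4 in WT2, 53.05 in CTCFKD1 and 39.98 in CTCFKD2. Tubb4b, a beta-tubulin, had the highest, with 363, 492, 749 and 555 TPM. Of the 42 genes of G1/S and DNA replication 0 passed by limma either (3 higher and 0 lower at an unadjusted p under 0.05). Of these, 35 had a change above 0 (52.1% of all genes) and 29 were higher in both experiments (30.1% of all genes). Their median change was 0.52, against 0.04 over all genes. With log2(TPM + 1) averaged over cells their median was 1.55, against 0.23 over all genes. By the CV rule, 9 of 40 genes of the G1/S list were called lower (11.3% of all genes) and 0 higher (7.68%). Of the 42, 35 were detected in more cells of both CTCF-KD cultures (36.2% of all genes) and 8 were lower where detected (25.4%). Ccne1, cyclin E1, had the highest statistic among them, with means of 9.62, 18.7, 92.6 and 62.2 TPM, a log2 change of 2.41 (SE 0.59) and an adjusted p of 0.585 (limma, Benjamini-Hochberg). E2f1, the transcription factor of the G1/S genes, was lowest, with 13.9, 11.9, 6.65 and 4.50 TPM.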

How the data were processed

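Single-cell RNA-seq of EL4 cells was analysed from the deposited table of 96 cells. The authors aligned reads to GRCm38 with STAR, counted uniquely mapped reads per gene with HTSeq and deposited TPM values, scaled by the length of a gene and by a cell's own total. Genes with near-identical copies lose reads under unique mapping, and which members this touched was not tested. The authors left out wells with 0 or 2 cells, each cell was a library of its own, and no molecular identifiers are described, so intervals cover counting error only.

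Cells with under 3000 genes were left out (1 of 96). Whole reads were recovered from the common step of each gene (504524 of 504524 values, 100.0%, within 0.001 of a whole number, with the smallest step taken as 1 read), and were used for depth and for thinning to 80000 reads, which 94 cells allowed. Culture values were log2(mean TPM + 1), with a pseudocount of 1, which understates changes of low genes. They were tested with limma 3.58.1 (R 4.3.3, trend, two-sided, Benjamini-Hochberg adjustment over all genes passing the filter). The limma test and the recovery of reads were tried on simulated data. For limma, WT cells were dealt at random into made-up cultures, which lack the spread between real cultures.

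The culture number pairs the cultures, since the study's methods tie number 1 to a first experiment and number 2 to a repeat of the knockdown. Deviations of same-numbered cultures from their condition means correlated at 0.275 over 7843 genes. P-values measure the spread between these cultures.

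Members and lists were chosen with earlier results of these data known. Genes with values in every culture are the 5 highest and 5 lowest limma statistics, the 6 highest and 3 lowest correlations with the other members, the 5 highest TPM means and the highest of each role. Other members named beside these were chosen after their values were seen. Of the other lists, the highest and lowest statistic of each is named. Alternatives covered the scale, pseudocount, filter, scaling, replicate block, left-out cultures, the measure of variation and thinning. Detection with each culture left out, the SD by culture, the replicate block and left-out cultures for the CV, and counts without CTCFKD2 were added after the data were seen. Promoters came from RefSeq tables, and 8 genes had no match there.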

Additional observations from a re-analysis of the deposited data

Results flagged for a closer look

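For 2 of the 53 genes both effects were over 0.5 on the log2 scale and of opposite sign in the 2 experiments. For Kif22, the chromosome-arm kinesin, the log2 change was 0.61 in experiment 1 (127 TPM in WT1 and 195 in CTCFKD1) and -1.51 in experiment 2 (280.5 in WT2 and 97.8 in CTCFKD2), a difference of 2.12. For Ckap2, a spindle protein, it was -1.27 in experiment 1 (79.2 and 32.3 TPM) and 0.65 in experiment 2 (23.8 and 37.9 TPM), a difference of -1.92. With 1 culture per condition in each experiment these differences were not tested, and Ctcf was not lower in CTCFKD2 than in WT2 (44.9 and 37.1 TPM).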

How the results depend on the processing

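The scale of the culture value changed the direction of the median. With log2(TPM + 1) averaged over cells, 44 genes of all were called higher by limma and 2 lower, 0 of them members, 13 members had a change below 0, and the median change of the members turned to 0.33. With a pseudocount of 10 the median was -0.35, and with each culture left out in turn it lay between -0.55 and -0.41, without WT1 at -0.55. Pairing the cultures by number as a replicate block left 40 members below 0, a median of -0.45 and 0 calls, as without the pairing. For the CV, 1 member was called lower on linear TPM, 12 after subtraction of the running median and 3 with limma on culture values, the last rising to 16 with the replicate block and lying between 0 (without either CTCF-KD culture) and 4 (without WT1) with a culture left out, where the lone culture is assumed to vary like the other condition, and 1 was called higher on linear TPM. Called higher were 1 member without the cultures of experiment 2 (Ect2, 7.35% of all genes) and 3 without those of experiment 1 (Cdc25c, Ube2s and Ndc80, 7.98% of all genes). On linear TPM 11.8% of all genes were called lower and 8.94% higher. Averaged over the CTCF-KD cultures, the median correlation of member pairs was 0.340 with Pearson's r, 0.279 with genes detected removed and 0.319 in thinned cells. In percent of recovered reads the median share of the members was 0.374 for WT cultures and 0.756 for CTCF-KD cultures, and without Hmgb2 and the 2 members with the highest means 0.422% of TPM in CTCF-KD. Of 242 values of the 22 named genes under these settings 28, from 16 genes, had the other sign, none of them called. Depth was lowest in CTCFKD2, where the median cell had 131098 reads, and members with few reads, Nek2 and Ube2s above all, could not be placed. For each change named here, the cause was not tested.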

Other observations

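Regulators of G2/M transcription and of entry into mitosis, among them factors acting on Cdk1 and on the anaphase-promoting complex, had changes of both signs. Of 19 such genes 0 passed the limma test with Benjamini-Hochberg adjustment. At an unadjusted p under 0.05 by limma 2 were higher and 2 lower (4.79% and 2.82% of all genes). A log2 change below 0 was found in 13 of them (52.1% of all genes had one above 0), with a median of -0.33 (0.04 over all genes). For log2(TPM + 1) averaged over cells the median of these regulators was 0.10 (0.23 over all genes). Rbl2, the p130 pocket protein of the DREAM repressor complex, had the lowest statistic, with means of 27.1 TPM in WT1, 43.03 in WT2, 6.00 in CTCFKD1 and 8.04 in CTCFKD2, without overlap of the groups, a log2 change of -2.14 (SE 0.72) and an adjusted p of 0.610 (limma, Benjamini-Hochberg). It was detected in 18, 10, 15 and 11 cells. Nfyc, a subunit of the CCAAT-binding factor NF-Y, had the highest, with 15.02, 8.45, 62.5 and 33.8 TPM, a log2 change of 1.93 (SE 0.67) and the same adjusted p. It was detected in 6 and 8 WT cells and in 17 and 17 CTCF-KD cells.

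Of the 12 core subunits of the anaphase-promoting complex, which unlike its activators are expressed through the cell cycle, 0 passed (0 at an unadjusted p under 0.05 by limma). In 8 of them the change was below 0 (52.1% of all genes had one above 0), and the median was -0.17 (0.04 over all genes). For log2(TPM + 1) averaged over cells their median was 0.28 (0.23 over all genes). The extremes of the statistic were Anapc1, with 46.6, 46.1, 25.03 and 29.4 TPM, and Cdc16, with 61.9, 22.5, 57.5 and 66.2 TPM in the order WT1, WT2, CTCFKD1 and CTCFKD2. Of these subunits 2 were detected in more cells of both CTCF-KD cultures, where 36.2% of all genes were.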
